A study of Canis lupus familiaris with 21 samples.

Results

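The genes described here are the ligands and receptors of the tumor necrosis factor (TNF) superfamily on an nCounter panel of 800 probes, measured in canine cutaneous histiocytoma (CCH). CCH is a mostly self-limiting canine skin tumor of Langerhans cell origin, and its regression goes along with an influx of lymphocytes. Members were chosen by name alone. They were the 23 probes whose names start with TNFSF or TNFRSF and 9 further genes (TNF, LTA, LTB, CD40, CD40LG, CD27, CD70, FAS and FASLG), of which 2 were not analysed here. The remaining 30 of 800 probes stood for 15 ligands and 15 receptors.

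RNA of formalin-fixed tumors filled 21 libraries in 4 groups. Group 3 was lymphocyte-enriched tissue of stage 3 (n = 5 libraries, 5 dogs aged 1.5 to 9 years). Group 2b was lymphocyte-enriched tissue of stage 2 (n = 6 libraries, 17 dogs aged 0.3 to 6 years, with 1 age missing). Group 2a was tumor cell-enriched tissue of stage 2 (n = 5, 5 dogs aged 0.6 to 3 years), and group 1 was tumor tissue of stage 1 (n = 5, 5 dogs aged 0.5 to 5 years, with 1 age missing). All were spontaneous tumors of privately owned dogs. Areas of stage 2 were picked under the microscope by their cell content and punched into new blocks, and no probe of the panel was used to pick them. Of the group 2b libraries, 4 were pools of 3 or 4 dogs and 2 came from single dogs, so the spread within group 2b is not that between single dogs. Tissue type and stage are joined in the comparison of group 3 with group 1, and their parts cannot be told apart there.

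Members of this superfamily are mostly trimeric ligands, bound to a cell or released from it, that gather their receptors on a neighboring cell. Receptors pass the signal to TRAF adaptors and NF-kappaB, or, where they carry a death domain, to caspases. Lymphotoxins shape lymphoid tissue, a large branch costimulates T cells, another keeps B cells and plasma cells alive, and FAS ligand and TRAIL can kill target cells. In Langerhans cells, signals through CD40 and through RANK, the product of TNFRSF11A, are known for maturation and survival.

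Values are normalized counts as deposited. Whole counts inferred from them summed to between 484696 and 1315185 per library, lowest in group 1 (484696 to 823763). Library medians of the 800 values averaged 341 ± 17 in group 3 and 348 ± 12.4 in group 2b, against 213 ± 30.3 in group 2a and 219 ± 40.9 in group 1 (SD). DV200, a percentage that rises with the length of the RNA fragments, averaged 73.2% in group 3, 74.6% in group 2b, 73.7% in group 2a and 68.5% in group 1. CD3E, a chain of the T cell receptor complex, ranged from 3853 to 6134 in group 3 and from 3446 to 6133 in group 2b, against 814 to 2210 in group 2a and 42.3 to 3402 in group 1, so that T cell RNA was also measured in tissue labeled as tumor cell-rich. CD207, which encodes the Langerhans cell lectin langerin, had 7.56 to 22.3 in group 3 and 11.6 to 21 in group 2b. It had 13.6 to 24.6 in group 2a and 18 to 38.5 in group 1. Probes differ in efficiency, so levels are compared between libraries and not between genes. In bulk tissue, fewer cells of a type and less RNA per cell cannot be told apart.

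**Figure D1:**
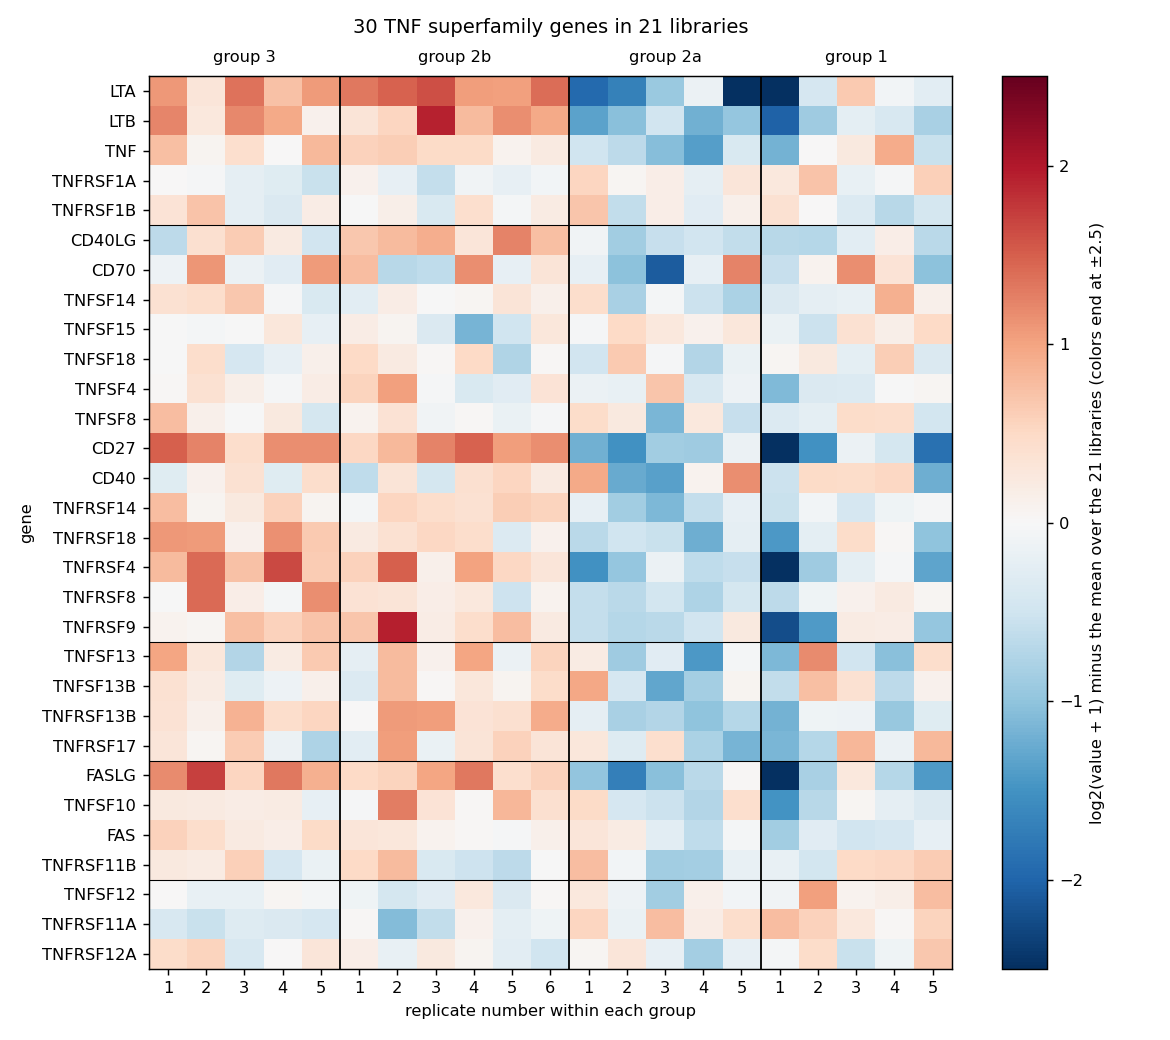
Log2 values of the 30 TNF superfamily genes (rows, ordered by gene class, ligands before receptors) in the 21 libraries (columns, by group), each minus the mean of the gene over all libraries. The rows of LTA, LTB, CD27, TNFRSF4 and FASLG are red in most libraries of groups 3 and 2b and blue in most of groups 2a and 1, while TNFRSF11A has the reverse colors in most.

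Lymphocyte-enriched and tumor cell-enriched areas of stage 2 tumors were compared first, to see which members differed between the tissues within 1 stage. Of the 30 members, 12 (40.0%) were called higher in group 2b than in group 2a, and 1 (3.33%) was called lower. Calls were made where limma gave an adjusted p (Benjamini-Hochberg, over all 800 probes) no higher than 0.05. The same rule called 32.2% of all probes higher and 6.5% lower, so the share of members called higher was not far above that of the panel. LTA and LTB, the lymphotoxin genes, differed by 3.01 ± 0.63 and 1.95 ± 0.32 on the log2 scale (SE), and CD27, a costimulatory receptor of T cells, by 1.96 ± 0.40. TNFRSF11A was the member called lower, at -0.68 ± 0.21. The median log2 fold change was 0.60 over the members and 0.23 over all probes.

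In 9 of the 30 members every group 2b library lay above every group 2a library, and in 0 every one lay below. Over all probes these shares were 21.5% and 3.88%. The 9 were LTB, LTA, TNF, CD40LG, CD27, TNFRSF14, TNFRSF4, TNFRSF13B and FASLG. Markers of other cells moved with them. Of 9 T cell markers 9 were called higher in group 2b, and their summed level ran from 11432 to 19931 in group 2b against 2448 to 6452 in group 2a. Of 8 B cell markers 7 were called higher (5572 to 10379 against 1560 to 3281), as were 7 of 9 markers of cytotoxic and NK cells (9871 to 24224 against 1807 to 9299). Their part in the differences of the members was not tested.

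The number of members called higher depended on how libraries were set to a common scale. With equal library medians, the median of all probes in this comparison moved by 0.71 on the log2 scale, to -0.48, and 5 members were called higher and 6 lower. Of all calls, 83.2% were higher on the deposited scale, against 26.6% with equal medians, 42.2% in the quantile setting, 47.4% under TMM and 48.2% under DESeq2. DESeq2 is counted here as a scaling, although it brings its own test beside its size factors. Calls of 6 members held in the same direction on the deposited scale and under all 4 others: LTB, LTA, CD27, TNFRSF13B and FASLG as higher and TNFRSF11A as lower. With equal medians all probes of a library move alike, so the gap between members and all probes (-0.11 against -0.48) could not change. TMM is nearly such a shift. The member median was 0.02 after quantile normalization, against -0.18 over all probes, and 0.13 under DESeq2, against -0.14.

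**Figure D2:**
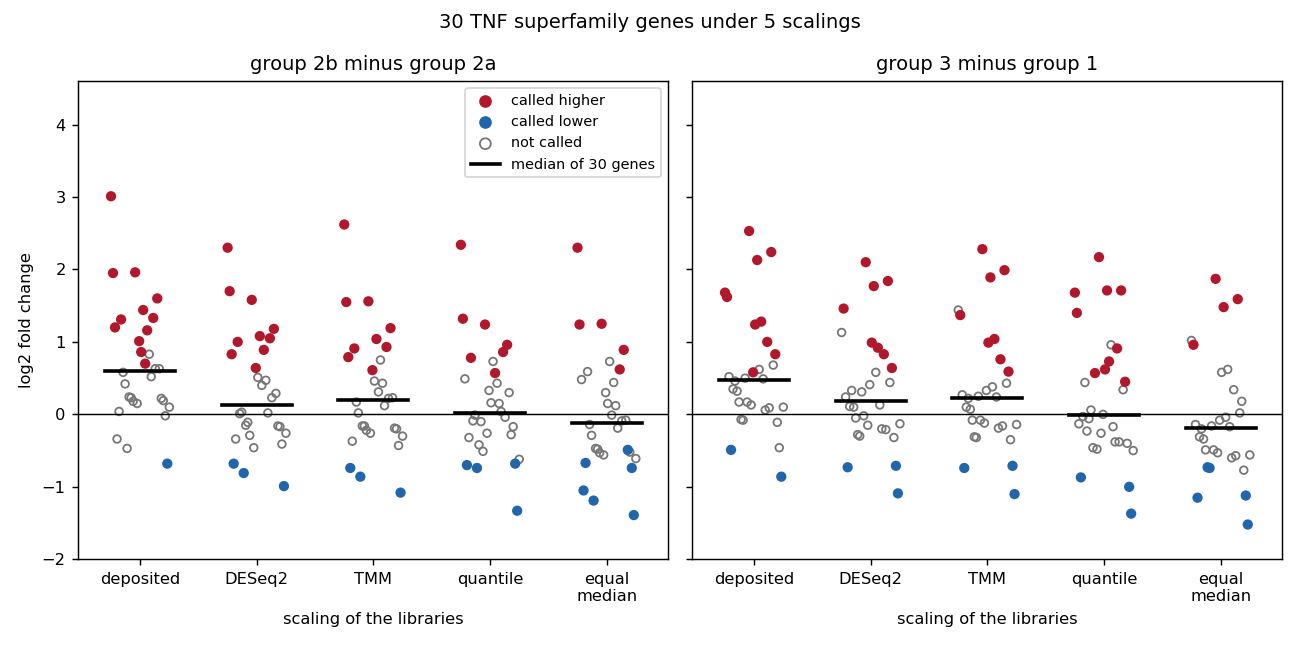
Log2 fold changes of the 30 genes in group 2b minus group 2a and in group 3 minus group 1 under 5 scalings of the libraries, with filled points for genes called and black lines for the median of the 30 genes. In group 2b minus group 2a the line lies at 0.60 on the deposited scale and at -0.11 with equal medians, and in group 3 minus group 1 at 0.47 and -0.19.

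Among the core cytokines, all 3 ligands were called higher in group 2b. LTB, which anchors lymphotoxin to the membrane of lymphocytes, ran from 79.8 through a median of 117 to 244 normalized counts in group 2b, against 24.6, 30.2, 45.2, 27.2 and 31.8 in group 2a. The lowest group 2b library lay above the highest of group 2a, and replicate 3, a pool, was highest at 244. The difference was 1.95 ± 0.32 (adjusted p = 0.000131), a fold of 3.87, and it averaged 132 ± 59.1 against 31.8 ± 8.02 (SD, n = 6 and 5).

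LTA encodes the soluble lymphotoxin chain, which also joins LTB in a membrane-bound trimer. It ran from 57.2 through 72.1 to 85.9 in group 2b, against 6.47, 7.82, 14.1, 24.9 and 1.00 in group 2a. The groups did not overlap, and the value of 1.00 was the floor to which the authors' processing had raised low values. The difference of 3.01 ± 0.63 (adjusted p = 0.00083) rests on few counts in group 2a, at most 22 per library, and ranged from 2.04 to 3.41 over the alternatives.

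TNF itself, the inflammatory cytokine, had 265 to 384 normalized counts in group 2b with a median of 347, against 177, 158, 120, 96.2 and 193 in group 2a. All 6 libraries of group 2b exceeded those of group 2a. The difference of 1.20 ± 0.29 (adjusted p = 0.0025) fell to 0.48 with equal medians (adjusted p = 0.0952) and to 0.49 after quantile normalization (adjusted p = 0.105), and both of these missed the threshold. Over all alternatives its adjusted p ran from 0.00055 to 0.105. Neither TNF receptor was called. TNFRSF1A, the death domain receptor of most tissues, had a difference of -0.34 ± 0.18 (adjusted p = 0.151), and TNFRSF1B, a receptor without a death domain found largely on immune cells, one of 0.04 ± 0.24 (adjusted p = 0.914). TNFRSF1A was called lower under all 4 other scalings, at -1.05 with equal medians. So was TNFSF15, a ligand of the costimulatory class, at -1.19 with equal medians. On the deposited scale TNFSF15 differed by -0.47 ± 0.24 (limma, adjusted p = 0.133).

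Of the 14 members that costimulate T cells or antigen-presenting cells, 7 were called higher in group 2b and 0 lower, against 32.2% and 6.5% of all probes. CD40LG, the signal of helper T cells to B cells and dendritic cells, had 49.2 to 95.7 normalized counts in group 2b with a median of 68.6, against 37.5, 21.2, 26.1, 28.3 and 25.4 in group 2a. Group 2b was above group 2a in every library, by 1.31 ± 0.25 (adjusted p = 0.000349). With equal medians the difference was 0.59 (adjusted p = 0.052, the highest of its alternatives, which began at 0.000238). Its receptor CD40 behaved otherwise. CD40 had 861 to 1945 normalized counts in group 2b with a median of 1629, against 2612, 559, 527, 1439 and 3000 in group 2a, where 2 libraries lay above and 2 below all of group 2b. The difference was 0.15 ± 0.43 with a 95% confidence interval from -0.76 to 1.06.

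CD27, carried by T cells and memory B cells, had 212 to 414 normalized counts in group 2b with a median of 318, against 63.4, 51.4, 80.4, 79.3 and 134 in group 2a. No library overlapped, and the adjusted p was 0.000632. Its ligand CD70, made by activated lymphocytes and dendritic cells, ran from 177 through 307 to 643 in group 2b, against 251, 141, 67.4, 250.3 and 680.0 in group 2a. The groups overlapped over most of their range, and the difference was 0.58 ± 0.51 (adjusted p = 0.418).

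TNFRSF14, a receptor of LIGHT that is also bound by the inhibitory receptor BTLA, had 328 to 520.4 normalized counts in group 2b with a median of 477, against 294, 187, 155, 225 and 294 in group 2a. Every group 2b library was above group 2a, the lowest of them, at 328, by a small margin. The difference was 1.01 ± 0.19 (adjusted p = 0.000329), and it was not called with equal medians (0.30) or after quantile normalization (0.33). TNFSF14, which encodes LIGHT, differed by 0.42 ± 0.26 (adjusted p = 0.224).

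In 5 pairs of this class the receptor was called higher in group 2b and its ligand was not. They were CD27 with CD70, TNFRSF14 with TNFSF14, and 3 more. TNFRSF4 (OX40, induced on activated T cells) differed by 1.44 ± 0.41 (adjusted p = 0.00877) and its ligand TNFSF4 by 0.23 ± 0.26. TNFRSF18 (GITR, high on regulatory T cells) differed by 0.86 ± 0.29 (adjusted p = 0.0257) and TNFSF18 by 0.24 ± 0.26. TNFRSF8 (CD30, a marker of activated lymphocytes) differed by 0.70 ± 0.26 (adjusted p = 0.0386) and TNFSF8 by 0.18 ± 0.27. Whether receptor and ligand differed from each other was not tested. TNFRSF9, a further receptor of activated T cells and NK cells, differed by 1.16 ± 0.39 (adjusted p = 0.0236).

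With equal medians TNFRSF4, TNFRSF9 and TNFRSF18 differed by 0.73, 0.44 and 0.15 and were not called. Several calls also rested on single libraries. That of TNFRSF18 was lost without group 2a replicate 4, group 2b replicate 3 or group 2b replicate 4, and that of TNFRSF9 without group 2a replicate 2 or group 2b replicate 2. TNFRSF8 had 16.3 to 30.9 normalized counts in group 2b with a median of 27.9, against 15.5, 14.5, 17.1, 13.6 and 17.3 in group 2a. Group 2b replicate 5, at 16.3, lay within group 2a, and the other libraries of group 2b lay above it. The call was lost when any of 8 libraries was left out (group 2a replicates 1, 2 and 4, group 2b replicates 1, 2, 3, 4 and 6), and the difference was -0.01 with equal medians.

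TNFRSF13B, the receptor TACI of B cells and plasma cells, was the 1 of 4 B cell survival members called. It had 42.6 to 89.9 normalized counts in group 2b with a median of 68.8, against 36.2, 23.5, 25.1, 20.4 and 25.4 in group 2a. All of group 2b lay above group 2a, by 1.33 ± 0.24 (adjusted p = 0.000259). Its ligands TNFSF13B (BAFF) and TNFSF13 (APRIL) had differences of 0.52 ± 0.33 and 0.83 ± 0.41, and TNFRSF17 (BCMA), a receptor of plasma cells, one of 0.63 ± 0.38, none of them called.

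FASLG, the death ligand of cytotoxic lymphocytes, was called higher among the 4 members that carry or catch death signals. It had 348 to 652 normalized counts in group 2b with a median of 388, against 131, 79.3, 126, 164 and 267 in group 2a. The groups did not overlap, and the difference was 1.60 ± 0.41 (adjusted p = 0.00396). FAS, its receptor, ran from 636 through 694 to 795 in group 2b, against 798, 742, 534, 418 and 624 in group 2a, with group 2b inside the range of group 2a. FAS was not called on the deposited scale (0.22 ± 0.16, adjusted p = 0.31), and it was called lower with equal medians, at -0.49. TNFSF10, which encodes TRAIL, differed by 0.63 ± 0.29 (adjusted p = 0.0877), and TNFRSF11B, the decoy receptor osteoprotegerin, by 0.19 ± 0.33 (adjusted p = 0.685).

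TNFRSF11A, which encodes RANK, averaged 278 ± 77.4 in group 2b and 440.0 ± 106 in group 2a (adjusted p = 0.0133), with overlap from 298 to 360 between the groups. It was lower in group 2b under each of the 5 scalings, and at -1.39 with equal medians. Of 10 markers of Langerhans and dendritic cells 2 were called higher and 2 lower, and their summed level was 3416 to 4620 in group 2b against 3328 to 7097 in group 2a. The part of these cells in its level was not tested. TNFSF12 (TWEAK) and its receptor TNFRSF12A, which act in tissue repair, differed by -0.02 ± 0.22 and 0.10 ± 0.24. TNFSF12 was called lower with equal medians (-0.74) and after quantile normalization (-0.68), and was not called under TMM or DESeq2.

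Leaving out the 4 pooled libraries left 2 single-dog libraries in group 2b. Then 6 members were called higher and 0 lower in group 2b, and the calls of CD27, FASLG, TNFRSF14, TNFRSF4, TNFRSF18, TNFRSF8 and TNFRSF11A were lost, with 123 probes called in all against 310 with the pools. Of the lost members, TNFRSF4 (1.81), TNFRSF8 (0.93), TNFRSF18 (0.94) and TNFRSF11A (-0.89) differed by more than with the pools, and CD27 (1.59), FASLG (1.41) and TNFRSF14 (0.84) by less.

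**Figure D3:**
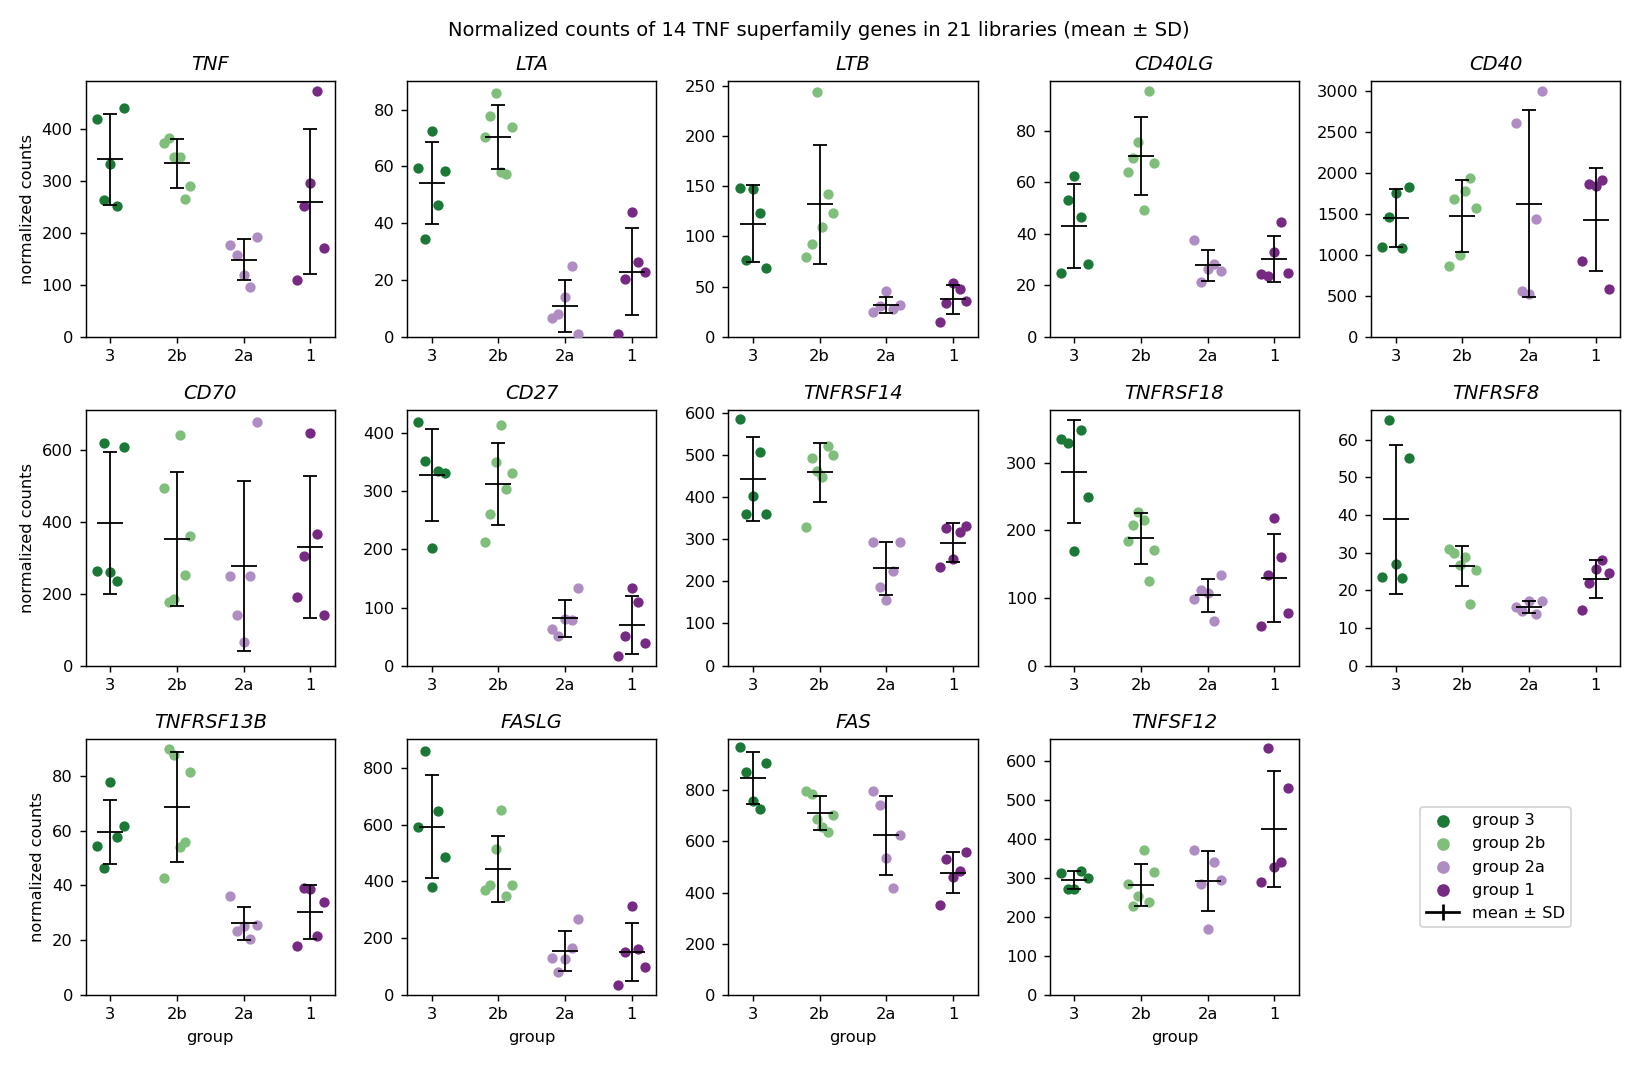
Normalized counts (vertical axes, from 0) of 14 genes in the libraries of groups 3, 2b, 2a and 1, with 1 point per library and the mean ± SD in black. LTB, CD27, TNFRSF13B and FASLG lie higher in every library of groups 3 and 2b than in any of groups 2a and 1, while CD40 and CD70 overlap across all groups.

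Lymphocyte-enriched stage 3 tissue and stage 1 tissue were compared next, in libraries that none of the stage 2 values came from. Of the 30 members, 10 (33.3%) were called higher in group 3 and 2 (6.67%) lower, against 29.4% and 10.5% of all probes. CD27 differed by 2.53 ± 0.41, FASLG by 2.24 ± 0.42 and TNFRSF4 by 2.13 ± 0.43, while TNFRSF11A (-0.86 ± 0.22) and TNFRSF1A (-0.49 ± 0.19) were lower. The median log2 fold change was 0.47 over the members and 0.14 over all probes. In 7 members every group 3 library lay above every group 1 library and in 1, TNFRSF11A, below, against 18.2% and 5.25% of all probes.

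T cell markers were called higher in 9 of 9 cases, with sums of 12347 to 20589 in group 3 against 482 to 9164 in group 1, and B cell markers in 6 of 8 (1562 to 8429 against 1425 to 2138). Of 9 markers of cytotoxic and NK cells 7 were called higher (8953 to 24335 against 1022 to 7185). DV200 was 71.2% to 75.8% in group 3 and 64.5% to 71.2% in group 1. With DV200 as a covariate 6 members were called higher and 1 lower, and the calls of LTA, TNFRSF1A, TNFRSF9, TNFRSF13B and TNFRSF18 were lost. The part of these markers in the differences was not tested. With equal medians 4 members were called higher and 5 lower, and 26.0% of all calls were higher against 73.7% on the deposited scale (44.5% after quantile normalization, 51.0% with TMM factors, 54.3% with DESeq2). CD27, FASLG, TNFRSF4 and LTB as higher and TNFRSF11A and TNFRSF1A as lower were the 6 members called under all 5 scalings.

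CD27 had 419, 353, 202, 334 and 331 normalized counts in group 3, against 15.9, 50.9, 134, 109 and 39.8 in group 1. The groups did not overlap (adjusted p = 0.000137). FASLG had 590.4, 860.4, 379, 650.1 and 487 in group 3, against 33.9, 149, 312, 160 and 96.6 in group 1, again with no overlap (adjusted p = 0.00044). The same held for FAS, at 969, 873, 757, 728 and 905 in group 3 against 351, 533, 461, 483 and 559 in group 1. FAS differed by 0.83 ± 0.17 (adjusted p = 0.00069) and by 0.18 with equal medians, where it was not called.

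Both lymphotoxin chains were called higher in group 3. LTB had 149, 76.3, 148, 124 and 68.0 normalized counts in group 3, against 14.8, 33.9, 53.2, 47.8 and 36.0 in group 1, with no overlap and a difference of 1.62 ± 0.34 (adjusted p = 0.000936). LTA had 59.5, 34.3, 72.3, 46.4 and 58.3 in group 3, against 1.06, 20.4, 44.1, 26.4 and 22.7 in group 1, where group 1 replicate 3 lay above the lowest group 3 library. The difference of LTA was 1.68 ± 0.66 (adjusted p = 0.0476) and 0.93 without group 1 replicate 1, which held 1 count. Its call was lost when any of 15 libraries was left out, that is all but group 1 replicates 3 and 4, group 2a replicates 3, 4 and 5 and group 3 replicate 2.

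TNF had 420.4, 263, 332, 252 and 442 normalized counts in group 3, against 110.0, 253, 296, 474 and 171 in group 1. The groups overlapped over most of their range, and the difference was 0.52 ± 0.30 (adjusted p = 0.178). CD40LG had 24.8, 53.1, 62.6, 46.4 and 28.1 in group 3, against 24.3, 23.8, 33.0, 44.5 and 24.6 in group 1, with 2 group 3 libraries among those of group 1. Its difference was 0.46 ± 0.26 (adjusted p = 0.167). Both were called in stage 2 tissue, and whether their differences were unlike in the 2 comparisons was not tested.

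Of the 14 costimulatory members 5, all of them receptors, were called higher and 0 lower, against 29.4% and 10.5% of all probes. Beside CD27 these were TNFRSF4 (adjusted p = 0.00069), TNFRSF18 (1.24 ± 0.31, adjusted p = 0.00339), TNFRSF9 (1.28 ± 0.41, adjusted p = 0.0169) and TNFRSF14 (0.58 ± 0.20, adjusted p = 0.0262). TNFSF9, the ligand of TNFRSF9, was not on the panel, and whether receptors and ligands differed from each other was not tested. The call of TNFRSF9 was lost without group 1 replicate 1. That of TNFRSF14 was lost without group 1 replicate 1 or 3 or group 3 replicate 1 or 4, and its difference was -0.08 with equal medians and -0.00 after quantile normalization. CD40 had 1094, 1458, 1761, 1086 and 1830 normalized counts in group 3 against 924, 1871, 1843, 1917 and 578 in group 1. CD70 had 263, 619, 261, 236 and 608 in group 3 against 193, 305, 648, 366 and 142 in group 1. Neither differed beyond its spread, at 0.13 ± 0.45 and 0.32 ± 0.53, with 95% confidence intervals that reach from -0.82 to 1.08 and from -0.79 to 1.44.

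TNFRSF13B was again the 1 B cell survival member called (1.00 ± 0.25, adjusted p = 0.00393), with 46.4 to 77.7 normalized counts in group 3 against 17.98 to 39.0 in group 1. With equal medians its difference was 0.34 (limma, adjusted p = 0.208), within adjusted p-values of 0.00296 to 0.208 over its alternatives. TNFRSF11A averaged 252 ± 15.1 in group 3 and 463 ± 88.7 in group 1 (adjusted p = 0.00379), beside a Langerhans and dendritic cell sum of 2774 to 5022 in group 3 against 2517 to 7072 in group 1. Of these 10 markers 1, IRF8, was called higher, 3 were called lower (FLT3, CCR6 and CD207), and the others were not called. The median log2 fold change of the 10 was -0.57. The part of these cells in the level of TNFRSF11A was not tested. TNFRSF1A averaged 1226 ± 190 in group 3 and 1753 ± 463 in group 1 (adjusted p = 0.0435), and this call was lost when any of 9 libraries was left out (group 1 replicates 1, 2 and 5, group 2b replicates 4, 5 and 6, group 3 replicates 3, 4 and 5). TNFSF12 was not called on the deposited scale (-0.46 ± 0.23, limma, adjusted p = 0.116). It was called lower under all 4 other scalings, at -1.12 with equal medians.

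**Figure D4:**
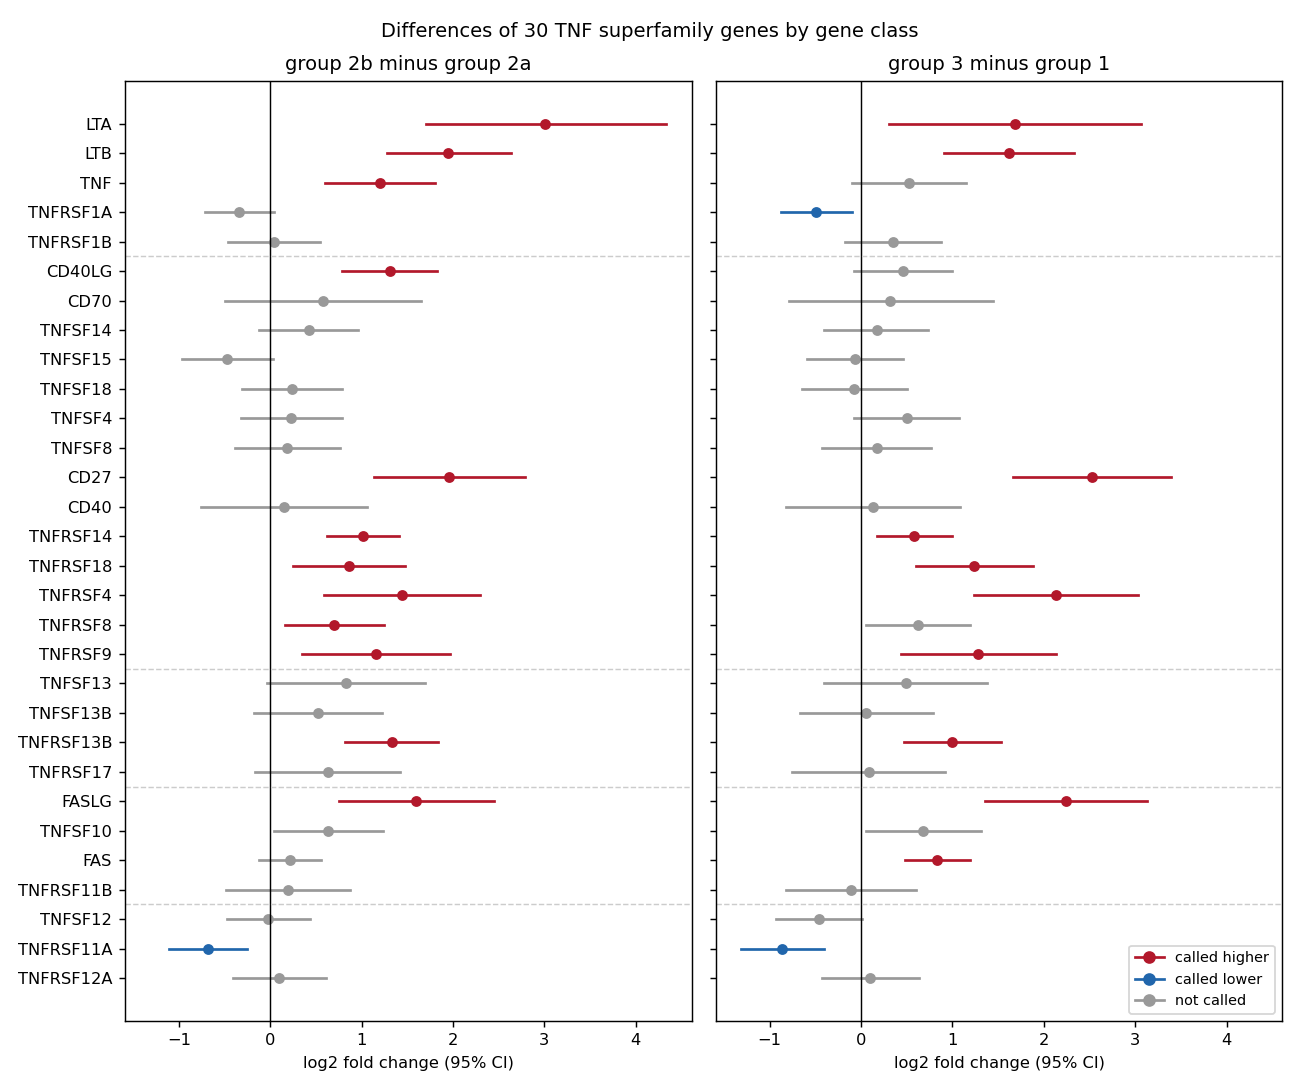
Log2 fold changes (points) with 95% confidence intervals (bars) of the 30 genes in group 2b minus group 2a and group 3 minus group 1, ordered by gene class with ligands before receptors, and colored by call. LTA, LTB, CD27, TNFRSF4, TNFRSF9, TNFRSF13B, TNFRSF14, TNFRSF18 and FASLG are called higher in both panels, and TNFRSF11A is called lower in both.

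The comparisons of group 2b with group 2a and of group 3 with group 1 share no library, although they share 1 estimate of the spread. They called 10 members in the same direction, 9 higher and 1 lower, which were 76.9% of the 13 calls in stage 2 and 83.3% of the 12 calls between stages 3 and 1. Over all probes, 247 were called in the same direction in both, which were 79.7% of 310 and 77.4% of 319 calls, so the overlap of the members was close to that of the panel. By role, 5 of 15 ligands (33.3%) and 7 of 15 receptors (46.7%) were called higher in group 2b than in group 2a, against 32.2% of all probes. In group 3 against group 1 these were 3 of 15 ligands (20%) and 7 of 15 receptors (46.7%), against 29.4% of all probes.

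Tumor cell-rich tissue was then compared between stages 2 and 1. Of the 30 members 0 were called in either direction by limma, by which 0% of all probes were called higher and 0.125% lower in group 2a. At an unadjusted p under 0.05 there were 3 members (1 higher, 2 lower) and 114 probes. Of the other tools, edgeR called 0 members and DESeq2 1, FAS. For a typical member the 95% confidence interval reached 0.61 to either side (median).

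TNFSF12, which encodes TWEAK, had 371, 285, 169, 340 and 295 normalized counts in group 2a, against 290, 633, 329, 341 and 531 in group 1. Group 1 replicates 2 and 5 lay above all of group 2a, and the other libraries were mixed (-0.52 ± 0.23, adjusted p = 0.301). For TNF, whose values are given above, group 2a lay at 96.2 to 193 and group 1 at 110.0 to 474, and the difference was -0.68 ± 0.30 (adjusted p = 0.301). FAS had the next smallest p, with a difference of 0.36 ± 0.17 (adjusted p = 0.331), and was called by DESeq2 (0.51, adjusted p = 0.00948, the lowest of its alternatives). TNFRSF8 and TNFRSF14 followed with -0.51 ± 0.27 and -0.37 ± 0.20. LTA, of which 2 libraries held at most 1 count, had a wide interval around -0.93 ± 0.66.

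Lymphocyte-enriched tissue was compared between stages 3 and 2. Again 0 members were called, against 0% of all probes called higher and 0.125% lower in group 3, and 1 member and 50 probes had an unadjusted p under 0.05. Neither edgeR nor DESeq2 called any member. CD40LG was that member, at 24.8 to 62.6 normalized counts in group 3 against 49.2 to 95.7 in group 2b, with group 3 replicates 1, 4 and 5 below all of group 2b. Its difference was -0.75 ± 0.25 (adjusted p = 0.253).

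TNFRSF18 had 335, 330, 169, 349 and 250 normalized counts in group 3, against 125 to 227 with a median of 196 in group 2b. In 4 of 5 group 3 libraries it lay above group 2b, by 0.58 ± 0.29 over all 5 (adjusted p = 0.877). TNFRSF8 had 23.6, 65.2, 27.0, 23.2 and 55.1 in group 3, where replicates 2 and 5 exceeded the highest group 2b library at 30.9 and the other 3 did not (0.43 ± 0.26). FAS differed by 0.25 ± 0.16 and TNFSF10 by -0.34 ± 0.29. Intervals here reached 0.59 to either side in the median.

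Genes on the path below the receptors were counted from 3 lists written from general knowledge. Of 10 measured adaptors and caspases, 5 (50%) were called higher in group 2b than in group 2a and 0 lower, against 32.2% and 6.5% of all probes. With equal medians the split turned, with 1 called higher and 5 lower. TRAF3, which holds noncanonical NF-kappaB signaling in check, differed by 2.42 ± 0.43, CASP10, an initiator caspase, by 0.97 ± 0.19, CASP8, the initiator caspase of FAS, by 0.75 ± 0.19, TRAF2 by 0.81 ± 0.23 and TRAF1 by 0.50 ± 0.17. In group 3 against group 1, 4 were called higher and 1 lower, against 29.4% and 10.5% of all probes. With equal medians these were 0 and 5, against 115 and 327 of all 800 probes. On the deposited scale TRAF1 differed by 0.76 ± 0.18 and TRAF3 by 1.61 ± 0.45. BIRC5, an inhibitor of apoptosis tied to cell division, differed by -0.63 ± 0.23.

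Of 13 genes of NF-kappaB and its brakes, 5 (38.5%) were called higher in group 2b than in group 2a and 6 (46.2%) in group 3 than in group 1, with 0 lower in both, against 32.2% and 29.4% of all probes called higher. With equal medians the direction turned, with 0 called higher and 7 lower in group 2b and 2 higher and 6 lower in group 3. All probes turned as well, with 111 called higher and 306 lower in group 2b, and 115 and 327 in group 3. NFKB2, the noncanonical subunit, differed by 1.02 ± 0.15 and 1.13 ± 0.15, its partner RELB by 0.83 ± 0.20 and 1.09 ± 0.21, and the inhibitor NFKBIA by 0.77 ± 0.16 and 1.30 ± 0.16. TNFAIP3, which encodes the brake A20, differed by 1.03 ± 0.17 in group 3 against group 1 (adjusted p = 0.000107), and by 0.27 ± 0.16 in group 2b against group 2a (adjusted p = 0.203).

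Of 19 genes known to be induced by TNF or lymphotoxin, 10 (52.6%) were called higher in group 2b than in group 2a and 11 (57.9%) in group 3 than in group 1, with 0 lower, against 32.2% and 29.4% of all probes called higher. The median log2 fold changes of the 19 genes were 0.90 and 1.25, against 0.23 and 0.14 over all probes. With equal medians 2 were called higher and 1 lower in group 2b, against 111 and 306 of all probes. In group 3 these were 4 and 0, against 115 and 327. The list medians of 0.19 and 0.59, against -0.48 and -0.52 over all probes, are no further check. That scaling moves all probes of a library alike, so the gap could not change. After quantile normalization the list medians were 0.46 and 0.79, against -0.18 and -0.19. CXCL13, the chemokine of B cell follicles, differed by 4.37 ± 0.95 and 2.52 ± 0.99, NOS2 by 2.28 ± 0.34 and 1.40 ± 0.35, and ICAM1, an adhesion molecule for leukocytes, by 0.90 ± 0.21 and 1.25 ± 0.22. Each of these lists had 0 calls in both stage comparisons. Other signals induce these genes as well, and the part of the superfamily in their levels was not tested.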

How the data were processed

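The authors had hybridized RNA of 21 formalin-fixed libraries to the nCounter Canine IO Panel and normalized the counts in nSolver at default settings; the deposited values are this normalized signal on a linear scale. Their own fold changes were not used. In each library 100% of values were whole multiples of 1 step (0.909 to 1.89, tolerance 0.01 normalized counts), except 18 values raised to a floor of 1, so counts were inferred by dividing by the step. For 9 libraries the low values alone fix the step; for the other 12 it rests on all values, and the authors' factors are not given in the sources used here. Background probes were not analysed here. DV200 and ages are those of the labels; the study's supplement has another DV200 for group 3 replicate 5 and another age for the youngest dog of group 2b. Libraries were grouped by the labels, and 0 columns were left without a group.

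Each probe was tested two-sided with limma 3.58.1 in R 4.3.3 (lmFit and eBayes, trend = TRUE) after log2(value + 1), with 21 libraries and 4 group means, and p-values were adjusted over 800 probes by Benjamini-Hochberg. Fold changes on this scale understate those of low probes. No filter was applied; a mean of at least 20 normalized counts in any group would leave 778 probes and all 30 members. Counts of calls were repeated with other pseudocounts, scalings, edgeR 4.0.16, DESeq2 1.42.0, covariates, and without each library. The script was tested on simulated data. Libraries of a group differed beyond counting error (chi-squared per probe of at least 40.6). The labels name separate dogs or pools, and p-values may be too small because pools average over dogs. This bears on every comparison, as all groups share 1 estimate of the spread. In group 3 minus group 1, 12 members were called in the main fit and 9 in a fit of these 2 groups only. Without the pools, a setting not counted among its alternatives, 10 were called.

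Members called in the first 2 comparisons were all named, in the stage comparisons the 5 members of smallest p, and values per library were given for 14 members by rank of p or by name; others were chosen after their values were seen. The members and lists were chosen with earlier results of these data known. All 30 members matched a symbol of the RefSeq annotation, as did 773 probes in all. Their sequences were not used here.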

Additional observations from a re-analysis of the deposited data

Results flagged for a closer look

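Within each group, the highest and the lowest library of each member were compared with the rest on the log2 scale by the gap to the nearest library over the whole range (Dixon's 95% limits). Of 120 gene and group combinations 7 had a library that stood apart, where chance gives about 1 in 20, or 6.

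In group 3, TNFSF10 (TRAIL) had 2741 normalized counts in replicate 5, against 3586 or more in the others. In group 2b, TNFRSF14 was lowest in replicate 1, at 328 against at least 447, TNFRSF8 was lowest in replicate 5, at 16.3 against at least 25.5, and TNFRSF9 was highest in replicate 2, at 320.1 against at most 142. In group 2a, TNFRSF9 had 98.2 in replicate 5 against at most 58.9, and TNFSF4 had 54.3 in replicate 3 against at most 30. In group 1, LTA had 1.06 in replicate 1 against at least 20.4, a value that came from 1 count.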

How the results depend on the processing

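Counts of calls were repeated under 14 other settings and in 21 fits without 1 library each (35 alternatives for the comparisons with group 2b, and 34 for the other 2, where leaving out the pools was not counted). Leaving out the pooled libraries was added after the data had been seen for the counts of lower members and of all probes and for single genes, as were the other scalings of the 3 pathway lists. In group 2b minus group 2a, members called higher (12) became 5 with equal medians, 7 after quantile normalization and 6 without the pools. Members called lower (1) became 6 with equal medians, 4 after quantile normalization, 3 with TMM factors, 3 with DESeq2, 0 with Benjamini-Yekutieli adjustment and 0 without the pools. All probes called (310) became 193 with Benjamini-Yekutieli adjustment and 123 without the pools. In group 3 minus group 1, members called higher (10) became 4 with equal medians and 6 with DV200 as a covariate, members called lower (2) became 5 with equal medians and 1 in a fit of these 2 groups only, with DV200 and with Benjamini-Yekutieli adjustment, and all probes called (319) became 196 with DV200 and 195 with Benjamini-Yekutieli adjustment. In group 2a minus group 1, DESeq2 called 1 member higher against 0, and all probes called (1) became 0 with equal medians, quantile normalization, edgeR, no trend, the replicate block, DV200 and Benjamini-Yekutieli adjustment, 8 with TMM factors and 24 with DESeq2. In group 3 minus group 2b, all probes called (1) became 3 with a pseudocount of 10 and 0 with a pseudocount of 0.5, TMM factors, edgeR, DESeq2, 2 groups only, no trend, the replicate block, DV200, Benjamini-Yekutieli adjustment and without the pools. Without 1 library, members called higher ranged from 10 to 13 in group 2b minus group 2a and from 7 to 11 in group 3 minus group 1, members called lower were 1 and 1 to 2, and both stage comparisons had 0 members. All probes called ranged from 257 to 319, from 264 to 327, from 0 to 12 (12 without group 2a replicate 2) and from 0 to 18 (18 without group 3 replicate 3).

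The 13 and 12 members called in the first 2 comparisons and the 5 of smallest p in each stage comparison made 35 differences. Of these, 3 values reversed: TNFRSF8 in group 2b minus group 2a (-0.01) and TNFRSF14 in group 3 minus group 1 (-0.08) with equal medians, and TNFRSF14 after quantile normalization (-0.00). Of 1205 values of these 35 differences, 1102 kept their direction and side of the threshold, 99 lost the call and 1 gained it. Among the 1205 are fits without a library of neither group compared. In those the fold change could not move, and only the shared estimate of the spread and the adjusted p could. Over all 30 members, called or not, at least 1 alternative turned the sign of 15 in group 2b minus group 2a, 17 in group 3 minus group 1, 13 in group 2a minus group 1 and 14 in group 3 minus group 2b. The causes were not tested. Same-numbered libraries correlated between -0.36 and 0.20 in their deviations from the group means, so the numbers were not read as pairs; with the replicate block 11 members were called in each of the first 2 comparisons against 13 and 12, and 0 in the others. Depth limits LTA, TNFRSF8 and other members with few counts.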
